A study of Mus musculus with 36 samples.

Results

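The genes described here encode the subunits of the ligand-gated ion channels for GABA, glycine and glutamate, measured by RNA sequencing in hypothalamus, cortex and brainstem of mice that lack the neuropeptide hypocretin (Hcrt, also called orexin) or the neurons that make it. They were chosen by symbol: every protein-coding gene of the GENCODE M21 annotation that codes for a GABA-A (alpha, beta, gamma, delta, epsilon, pi, theta or rho), glycine, AMPA, NMDA, kainate or delta glutamate receptor subunit, with 1 alpha gene left out. The rule used no measured value. It gave 41 of the 38924 genes in the count tables: 18 for GABA-A receptors, 5 for glycine receptors and 18 for glutamate receptors.

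The study held 36 libraries from C57BL/6 mice, with 4 genotypes, 3 tissues and 3 libraries for every combination. The genotypes were Hcrt/Orexin-ataxin-3 transgenic, carrying 1 copy of a transgene that makes ataxin-3 in hypocretin neurons and so ablates them, with Hcrt/Orexin-ataxin-3 wildtype as its control, and Hcrt/Orexin knockout, in which the Hcrt gene is inactive, with Hcrt/Orexin wildtype as its control. They are called ataxin-3 transgenic, ataxin-3 line wild type, Hcrt knockout and Hcrt line wild type below. The transgenic animals lose the cells with everything those cells make, while the knockout animals lose the gene alone. No control library was shared between the models. The labels number the replicates but do not say that each came from another animal, nor do they give age or pooling, so p-values measure the spread between these libraries, which may be technical.

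Fast inhibition in the brain runs through GABA-A receptors, which are pentamers usually built of alpha, beta and gamma subunits, and in the brainstem and spinal cord also through glycine receptors, built of alpha subunits and the beta subunit that anchors them at synapses. Fast excitation runs through tetramers of AMPA, NMDA or kainate subunits. Which subunits a neuron makes sets how quickly a channel opens, what drugs bind to it and where on the cell it sits. Hypocretin neurons project to the arousal nuclei of hypothalamus and brainstem and to the cortex, and their loss causes narcolepsy.

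Hcrt itself was measured first. In hypothalamus it lay between 51.4 and 196 CPM (counts scaled to library size with edgeR's TMM factors) in the 6 wild-type libraries and between 0.996 and 2.46 in the 6 libraries of both models, with no overlap. In cortex and brainstem it was at most 1.29 CPM, so the genotypes there were not checked by loss of Hcrt. Knockout libraries had 29, 27 and 42 counts in brainstem against 5, 0 and 2 in their wild type. In cortex they had 17, 10 and 9 against 1, 30 and 1. Gene counts per library ran from 21915540 to 47057537. The tissue labels held: 10 hypothalamic markers summed to 939 to 1596 CPM in hypothalamus and to at most 25.1 elsewhere, 8 cortical markers to at least 1841 in cortex, and 9 brainstem markers to at least 529.7 in brainstem. Several libraries also carried transcripts of neighbouring tissue. Of the brainstem libraries, 6 held 551 to 850.5 CPM of 7 cerebellar markers, against 87.5 to 169 in the other 6. In hypothalamus, pituitary Gh passed 100 CPM in 3 wild-type libraries, the olfactory gene Omp in 1 transgenic library, and the cortical gene Slc17a7 passed 50 CPM in Hcrt line wild-type libraries 1 and 3. For the genes described below, calls between tissues that were lost or gained without these libraries, and called differences that moved by over 1.5-fold, are given with and without them.

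Sequences are shown for the X chromosome cluster, because its 3 genes are neighbours and the middle one did not share the tissue pattern of the others. Gabre (epsilon, ENSMUSG00000031340, chrX:72255999-72274803), Gabra3 (alpha3, ENSMUSG00000031343, chrX:72432681-72656848) and Gabrq (theta, ENSMUSG00000031344, chrX:72825178-72842602) lie in this order on GRCm38, with 157877 and 168329 bases between them. The stretches before the RefSeq transcription starts (GRCm38.p6) were chrX:72274804-72274971 on the minus strand for Gabre, the first 168 of 250 bases, chrX:72656920-72657169 on the minus strand for Gabra3 and chrX:72824928-72825177 on the plus strand for Gabrq. Capitals mark matches, on either strand, to any of the 6 motifs searched: the GC box GGGCGG, the TATA box TATAAA, the CCAAT box CCAAT, the core of the left part of the RE1 silencer element CAGCACC, the NKX2 core CAAGTG and the cyclic AMP element TGACGTCA.
Gabre: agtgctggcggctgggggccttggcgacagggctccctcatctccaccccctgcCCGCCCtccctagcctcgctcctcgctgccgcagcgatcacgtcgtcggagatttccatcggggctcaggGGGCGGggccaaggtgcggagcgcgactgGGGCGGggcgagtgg
Gabra3: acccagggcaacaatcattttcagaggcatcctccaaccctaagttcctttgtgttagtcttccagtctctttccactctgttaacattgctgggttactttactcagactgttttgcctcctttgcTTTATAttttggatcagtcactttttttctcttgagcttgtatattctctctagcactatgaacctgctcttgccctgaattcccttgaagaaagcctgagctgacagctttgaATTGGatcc
Gabrq: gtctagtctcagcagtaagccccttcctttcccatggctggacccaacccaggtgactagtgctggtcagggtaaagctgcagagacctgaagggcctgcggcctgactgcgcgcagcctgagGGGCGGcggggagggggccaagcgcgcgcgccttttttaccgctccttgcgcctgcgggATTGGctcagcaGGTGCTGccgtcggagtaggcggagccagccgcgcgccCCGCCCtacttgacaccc

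Over the full 250 bases, Gabre had a GC content of 68.8% with 21 CpG dinucleotides and Gabrq 67.2% with 19, whereas the Gabra3 stretch had 42.4% and 0. Of 27025 RefSeq promoters cut the same way, the median was 52% GC with 6 CpG. The 28 subunit genes with an entry had a median of 58.8% and 9. Gabre held 3 GC boxes and Gabrq 2, and Gabra3 none, while 32.9% of all promoters hold at least 1. Gabra3 held a match to the TATA box only on the strand opposite to the gene, and 12.97% of promoters match on either strand. CCAAT, in 34.46%, was found in Gabra3 and Gabrq, and the RE1 core, in 5.70%, in Gabrq alone of the 3 genes. The NKX2 core, in 11.62%, and the cyclic AMP element, in 1.62%, matched none of them. A match describes letters in this window and shows no binding.

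The tissue comparison asked how the receptor subunits of the wild-type mice differed between hypothalamus, cortex and brainstem, with 6 libraries a tissue. Every subunit gene that could be tested differed between at least 1 pair of tissues, and 25 of 39 differed in all 3 pairs. The same counts were not made over all genes, of which 68.2% to 78.6% passed the test described below in each pair. Epsilon, theta and gamma1 of the GABA-A receptor and glycine alpha2 and alpha3 were highest in hypothalamus, delta, alpha4, GluA2, GluN2B and GluK5 were highest in cortex, and glycine alpha1, glycine beta and GluA4 were highest in brainstem. In all, 18 of the 39 genes had their highest median in hypothalamus, 15 in cortex and 6 in brainstem, which was not counted over all genes. Gabrp and Gabrr3 had too few counts to be tested.

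Between hypothalamus and cortex, 21 of 39 genes were higher in hypothalamus and 13 lower by edgeR's quasi-likelihood test at a Benjamini-Hochberg adjusted p under 0.05. The same test called 75.9% of all genes, 38.7% higher and 37.2% lower, so a called difference was common across the transcriptome. Between hypothalamus and brainstem the counts were 26 higher and 10 lower, against 68.2% of all genes, 36.2% higher and 32% lower. Between cortex and brainstem they were 18 and 15, against 78.6%, 38.7% and 39.8%. The median log2 difference of the subunit genes was 0.57, 0.47 and -0.051 for the 3 pairs, and that of all genes 0.027, 0.033 and -0.023. The median size of the difference, whatever its sign, was 0.91, 0.91 and 0.99 for the subunit genes and 0.50, 0.38 and 0.58 for all genes.

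Cell makeup differed between the tissues as well. Summed markers of oligodendrocytes, the myelin-making cells, were 17185 to 21187 CPM in brainstem, 4322 to 5918 in hypothalamus and 3599 to 4788 in cortex, and those of neurons 6849 to 7493, 2869 to 3635 and 6398 to 6885. Their part in the differences below was not tested. In bulk tissue, fewer cells of a type and less RNA per cell cannot be told apart.

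**Figure D1:**
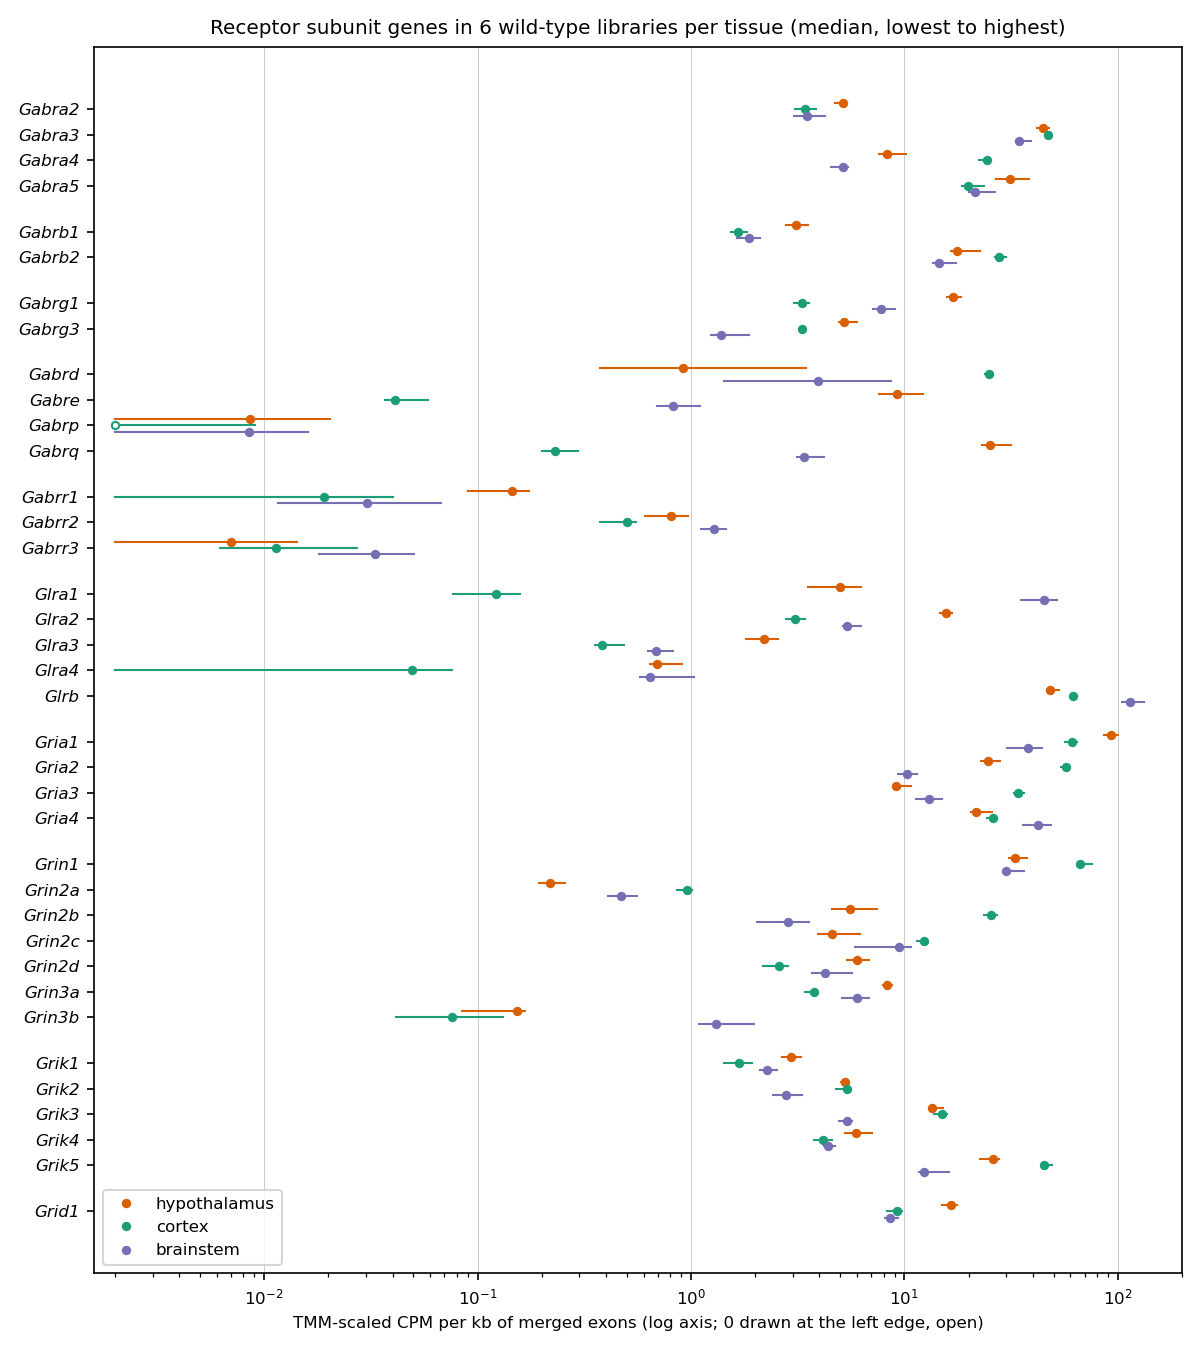
Level of subunit genes in wild-type mice, in TMM-scaled CPM per kb of merged exons on a log axis, by tissue. Points are medians and lines run from the lowest to the highest of 6 libraries. Gabre, Gabrq and Glra1 span the widest range between tissues, while the medians of Gabra3 lie within 1.5-fold.

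Levels of different genes are compared per kb of merged exon length (TMM-scaled CPM per kb). A level given as 3 values is the lowest, the median and the highest of 6 wild-type libraries, and differences between tissues are log2 values with their SE. On this scale the GABA-A subunits summed to 336 to 353 in cortex, 299 to 329 in hypothalamus and 185 to 222 in brainstem, and the glutamate receptor subunits to 365 to 381, 263 to 302 and 186 to 212. The glycine receptor subunits were highest in brainstem, with 148 to 192, against 68.4 to 77.6 in hypothalamus and 64.8 to 67.6 in cortex. By median level per kb, Gria1 was among the leading genes in hypothalamus, Grin1 and Glrb in cortex, and Glrb, Glra1 and Gria4 in brainstem. Ranges of neighbours in that order overlapped in 31, 25 and 33 of 40 pairs, so the order is firm only for genes far apart. Levels spanned 17, 18 and 14 genes above 10 per kb and 8, 12 and 7 below 1 per kb.

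**Figure D2:**
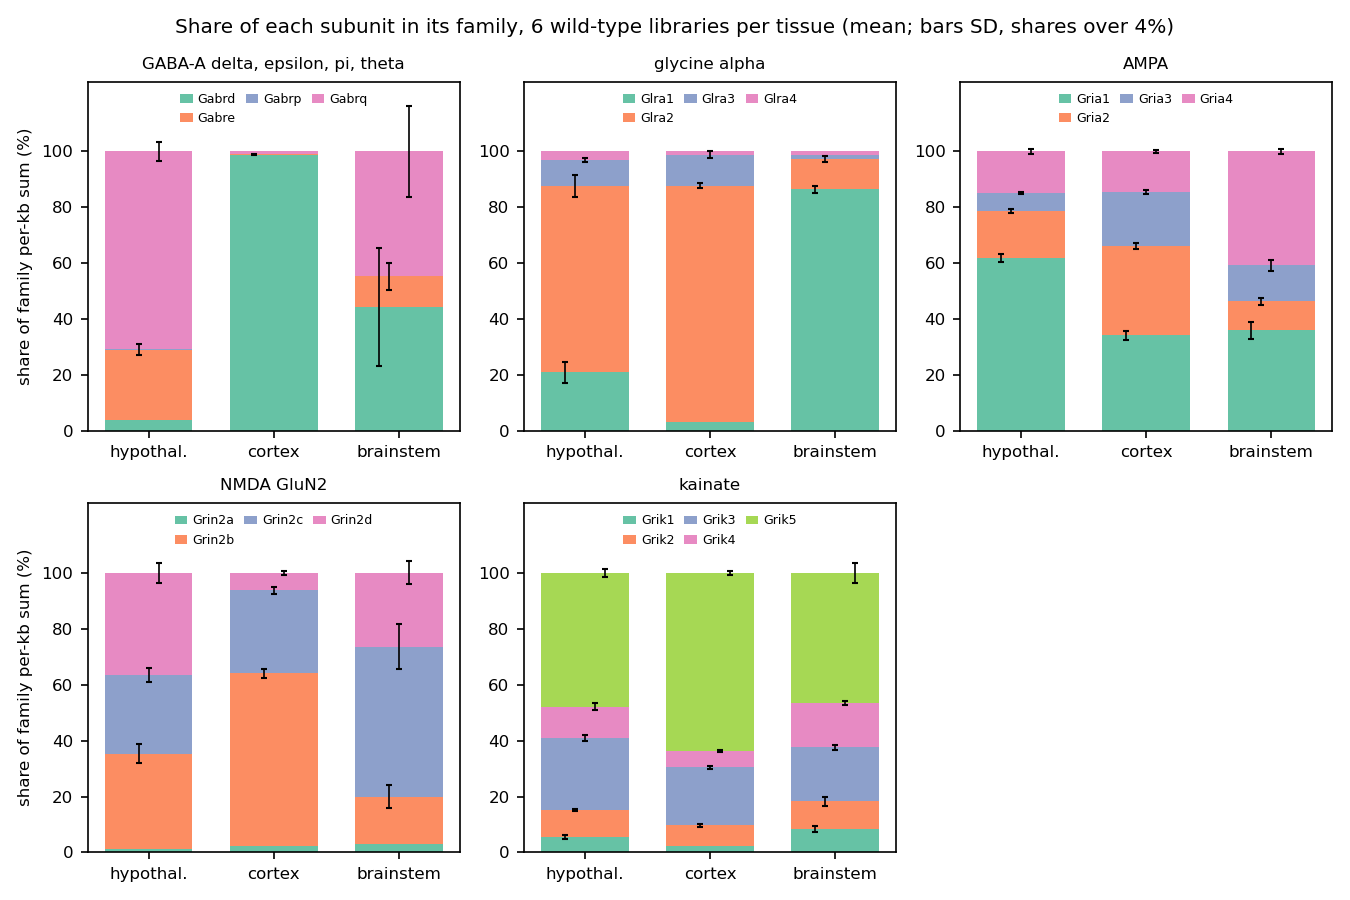
Share of subunits in the summed per-kb level of their family (percent) for 6 wild-type libraries per tissue, as stacked means with SD bars on shares over 4%. The glycine alpha panel passes from mostly Glra2 in hypothalamus and cortex to 86.5% Glra1 in brainstem, and Gabrd makes up 98.8% of its panel in cortex.

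The alpha subunits form the GABA site together with beta and set the benzodiazepine pharmacology. Gabra4 (alpha4, a partner of delta in receptors outside the synapse) was the alpha gene that differed most. Its level per kb was 22.4, 24.4 and 24.7 in cortex, 7.60, 8.30 and 10.2 in hypothalamus and 4.52, 5.15 and 5.45 in brainstem. The 3 ranges did not overlap, and cortex exceeded brainstem by 2.24 ± 0.082 on the log2 scale, with a hypothalamus minus cortex difference of -1.50 ± 0.079. Gabra2 (alpha2, found at the axon initial segment) and Gabra5 (alpha5, which carries tonic currents in the hippocampus) were both highest in hypothalamus. The hypothalamus minus cortex difference was 0.57 ± 0.068 for Gabra2 and 0.61 ± 0.07 for Gabra5, and cortex minus brainstem did not pass the test (-0.051 ± 0.069, adjusted p = 0.501, and -0.12 ± 0.071, adjusted p = 0.113). For Gabra5 it passed at -0.22 without the brainstem libraries rich in cerebellar markers (adjusted p = 0.0383), at -0.17 without ataxin-3 line wild-type brainstem library 3 and at -0.17 without Hcrt line wild-type cortical library 3. Gabra3 (alpha3, typical of monoamine neurons) had medians per kb of 44.5 in hypothalamus, 46.9 in cortex and 34.4 in brainstem, and brainstem was lower by 0.33 ± 0.044 than hypothalamus and by 0.41 ± 0.044 than cortex.

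The beta subunits complete the GABA site. Gabrb2 (beta2) was higher in cortex than in hypothalamus, with a hypothalamus minus cortex difference of -0.61 ± 0.18 (adjusted p = 0.004), and hypothalamus and brainstem did not pass the test (0.28 ± 0.18, adjusted p = 0.181). Gabrb1 (beta1) was low everywhere, at medians of 3.10, 1.66 and 1.88 per kb, and higher in hypothalamus than in cortex by 0.91 ± 0.14. Exons of Gabra4 and Gabrb1 share 46 bases on opposite strands.

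The gamma subunits place the receptor at the synapse and form the benzodiazepine site with alpha. Gabrg1 (gamma1, whose receptors respond less to benzodiazepines) was 15.8, 16.9 and 18.4 per kb in hypothalamus, 3.03, 3.33 and 3.58 in cortex and 7.12, 7.77 and 9.02 in brainstem. The 3 ranges lay apart, with hypothalamus highest. Gabrg1 was 5.14-fold higher in hypothalamus than in cortex (2.36 ± 0.061, adjusted p = 1.75e-24), and its share of the gamma sum was 24.2% ± 0.943 in hypothalamus, 17.5% ± 0.735 in brainstem and 6.19% ± 0.355 in cortex. Gabrg3 (gamma3) was also highest in hypothalamus, at a median of 5.24 per kb, against 3.30 in cortex and 1.38 in brainstem, and hypothalamus exceeded brainstem by 1.86 ± 0.08.

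The delta, epsilon, theta and pi subunits take the place of gamma or beta in receptors with their own pharmacology, and these gave the largest tissue differences of the GABA-A genes. Gabre (epsilon, which makes receptors less sensitive to some anaesthetics) had levels per kb of 7.65, 9.24 and 12.2 in hypothalamus, 0.0367, 0.0411 and 0.0584 in cortex and 0.696, 0.82 and 1.103 in brainstem. Gabrq (theta, known from hypothalamic and monoamine neurons) had 23.2, 25.2 and 31.8 in hypothalamus, 0.2, 0.23 and 0.296 in cortex and 3.15, 3.40 and 4.19 in brainstem. Both genes stood highest in all 6 hypothalamic libraries, lowest in all 6 cortical ones and between them in brainstem. The hypothalamus minus cortex difference was 7.73 ± 0.16 for Gabre, 213-fold (adjusted p = 5.11e-27), and 6.74 ± 0.13 for Gabrq, 107-fold (adjusted p = 2.79e-27). Against brainstem, hypothalamus was higher by 3.47 ± 0.11 for Gabre and 2.89 ± 0.10 for Gabrq, and cortex minus brainstem was -4.27 ± 0.18 and -3.85 ± 0.13. In cortex Gabre rested on 6 to 9 counts a library. Gabra3, between the 2 genes on the X chromosome, differed by -0.084 ± 0.044 between hypothalamus and cortex (adjusted p = 0.0817), and passed, at -0.11, without Hcrt line wild-type hypothalamic library 1. It was thus not higher in hypothalamus than in cortex, unlike its neighbours.

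Gabrd (delta, which carries tonic current outside synapses and responds to neurosteroids) was highest in cortex instead. Its level per kb was 23.9, 24.9 and 25.9 in cortex, 0.375, 0.917 and 3.45 in hypothalamus and 1.43, 3.96 and 8.70 in brainstem. Cortex lay far above both, with a tight range, while hypothalamic and brainstem libraries scattered widely and overlapped. Gabrd was 17.3-fold lower in hypothalamus than in cortex (-4.12 ± 0.56, adjusted p = 2.99e-07) and higher in cortex than in brainstem by 2.49 ± 0.50 (adjusted p = 7.91e-05). The hypothalamus minus cortex difference was -5.20 without the hypothalamic libraries rich in Slc17a7 and -4.80 without ataxin-3 line wild-type hypothalamic library 3. That library held 196 CPM of 6 striatal markers and Gabrd at 7.27 CPM. Transgenic hypothalamic libraries 2 and 3 held 212 and 189 CPM of these markers, with Gabrd at 4.20 and 4.35. The other hypothalamic libraries held 80.6 to 117 CPM of them. Gabrd was 9.92 and 3.86 in those rich in Slc17a7 and at most 1.95 in the rest. The part of striatal markers was not tested. The cortex minus brainstem difference was 3.86 without the brainstem libraries rich in cerebellar markers and 3.21 without ataxin-3 line wild-type brainstem library 3 alone. Direction and call held each time, while the size moved by over 1.5-fold. Hypothalamus minus brainstem was -1.63 ± 0.55 (adjusted p = 0.0115), but this call rested on single libraries: it was -0.91 without ataxin-3 line wild-type brainstem library 3 (adjusted p = 0.174) and -0.25 without the 6 libraries rich in cerebellar markers (adjusted p = 0.749). It was -2.73 without the hypothalamic libraries rich in Slc17a7 and -2.31 without ataxin-3 line wild-type hypothalamic library 3.

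The remaining GABA-A genes were scarce. Gabrp (pi, known from tissues outside the brain) had at most 10 counts in all libraries but 1, the ataxin-3 transgenic hypothalamic library with Omp at 594.9 CPM, which had 596 counts. The rho subunits form the slow, bicuculline-resistant GABA-C type of receptor, best known in retina. Gabrr2 (rho2) was the only one above 0.2 per kb, at 1.11, 1.28 and 1.46 in brainstem, 0.612, 0.804 and 0.968 in hypothalamus and 0.373, 0.502 and 0.555 in cortex. These ranges lay apart, and brainstem exceeded hypothalamus and cortex, with differences of -0.69 ± 0.11 for hypothalamus minus brainstem and -1.38 ± 0.12 for cortex minus brainstem. Gabrr1 (rho1), its neighbour on chromosome 4, had only 8 to 15 counts in hypothalamic libraries and 0 to 4 in cortical ones, and was higher in hypothalamus than in brainstem by 1.89 ± 0.36 (adjusted p = 3.75e-05). Gabrr3 had 2 to 7 counts in brainstem, 1 to 4 in cortex and 0 to 2 in hypothalamus, where a reading of 0 allows up to 3 counts.

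**Figure D3:**
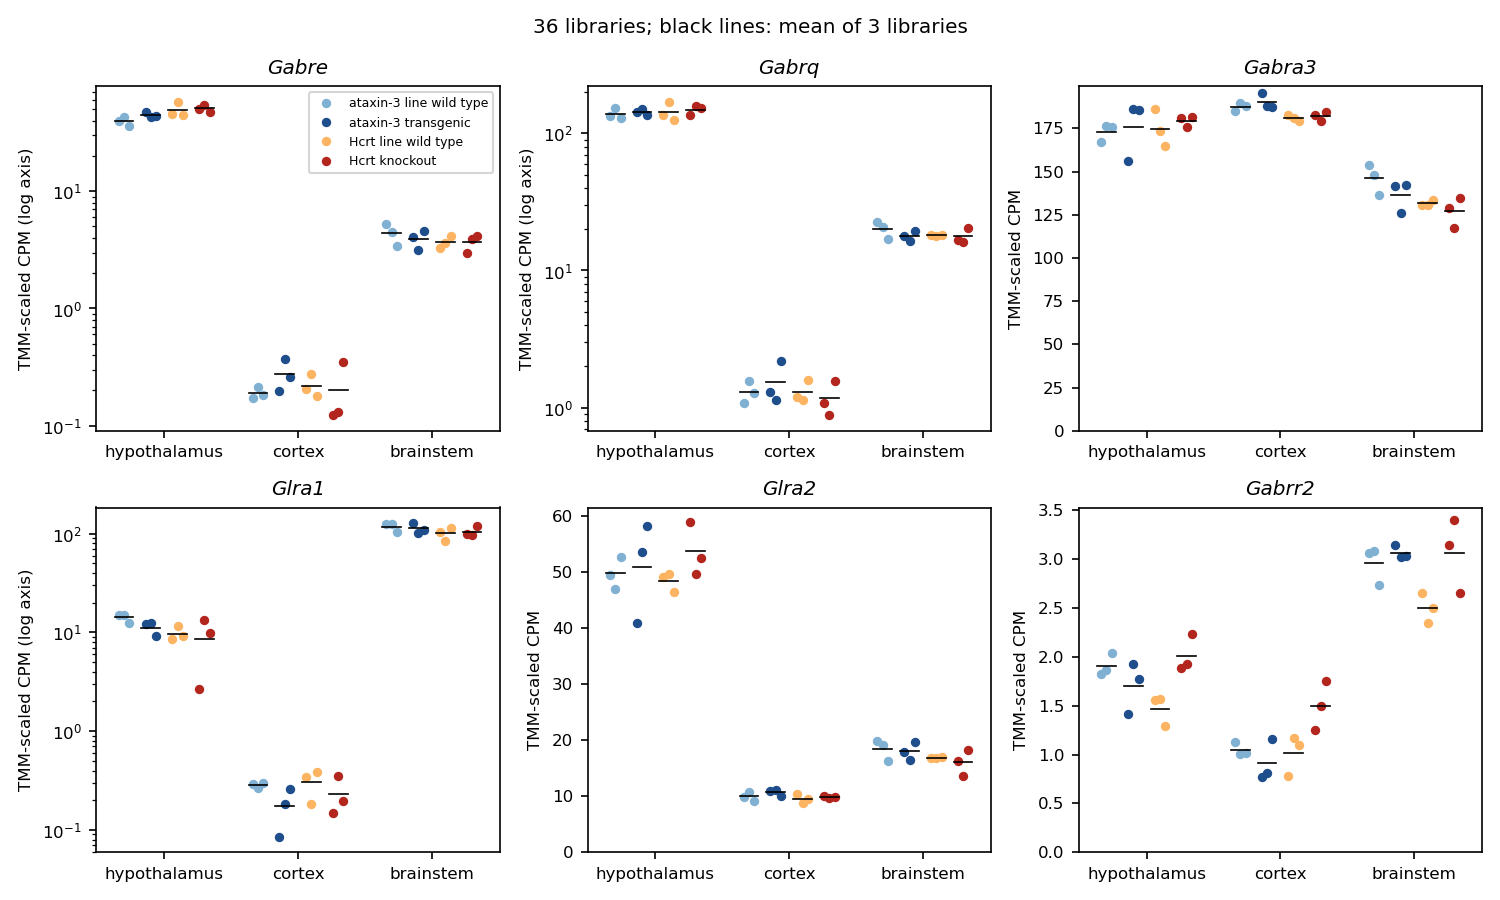
TMM-scaled CPM of 6 subunit genes in each of the 36 libraries, by tissue and genotype, with black lines at the mean of 3 libraries. The axes of Gabre, Gabrq and Glra1 are logarithmic and the others start at 0. Gabre, Gabrq, Glra1 and Glra2 separate the tissues in all 4 genotypes, and Gabra3 overlaps between hypothalamus and cortex.

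The glycine receptor gene Glra1 showed the largest difference of any subunit gene between tissues. Glra1 (alpha1, ENSMUSG00000000263, chr11:55514238-55608198, the adult form of spinal cord and brainstem, mutated in startle disease) had a level per kb of 35.2, 45.0 and 51.8 in brainstem, 3.53, 5.005 and 6.26 in hypothalamus and 0.0764, 0.122 and 0.159 in cortex. The 3 ranges lay far apart. It was 363-fold lower in cortex than in brainstem (-8.50 ± 0.29, adjusted p = 7.94e-20), lower in hypothalamus than in brainstem (hypothalamus minus brainstem -3.21 ± 0.19), and higher in hypothalamus than in cortex by 5.30 ± 0.31. Its cortical counts were only 6 to 15 a library.

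Glra2 (alpha2, the main form before birth) had a level per kb of 14.7, 15.7 and 16.7 in hypothalamus, 2.79, 3.09 and 3.41 in cortex and 5.19, 5.37 and 6.28 in brainstem. Hypothalamus was highest without overlap, by 2.33 ± 0.077 over cortex and 1.48 ± 0.074 over brainstem. The ratio of Glra1 to Glra2 therefore ran from 0.0274 to 0.0526 in cortex through 0.227 to 0.419 in hypothalamus to 6.59 to 8.69 in brainstem. In shares of the summed alpha subunits, Glra1 was 86.5% ± 1.196 in brainstem, 20.97% ± 3.69 in hypothalamus and 3.31% ± 0.728 in cortex, and Glra2 10.8% ± 0.983, 66.6% ± 4.03 and 84.4% ± 0.974.

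Glra3 (alpha3, known from pain circuits of the dorsal horn) was highest in hypothalamus too, exceeding cortex by 2.43 ± 0.22 and brainstem by 1.62 ± 0.21. Glra4 (alpha4) was scarce, with medians per kb of 0.693 in hypothalamus and 0.645 in brainstem. It was lower in cortex, with 0 to 6 counts a library, than in hypothalamus (3.96 ± 0.30 for hypothalamus minus cortex) and brainstem, and these last did not differ beyond their spread (0.093 ± 0.22, adjusted p = 0.718). Glrb (beta, which binds the scaffold gephyrin) was the most abundant subunit gene in brainstem, with a level per kb of 105, 114 and 133, against 47.3, 48.1 and 52.8 in hypothalamus and 61.3, 61.9 and 64.3 in cortex. Glrb thus stayed abundant in cortex, where the alpha subunits were scarce, and brainstem exceeded hypothalamus and cortex with differences of -1.22 ± 0.05 and -0.88 ± 0.049.

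AMPA receptors carry most fast excitation. Gria1 (GluA1) was the most abundant subunit gene in hypothalamus, at 86.0, 92.5 and 100.5 per kb, against 56.7, 61.2 and 64.8 in cortex and 30.1, 37.8 and 44.2 in brainstem. Its ranges did not overlap, and hypothalamus exceeded cortex by 0.61 ± 0.091 and brainstem by 1.32 ± 0.093. Gria2 (GluA2, whose edited form keeps calcium out of the channel) had 54.0, 57.1 and 59.4 per kb in cortex, 22.9, 24.7 and 27.9 in hypothalamus and 9.33, 10.3 and 11.4 in brainstem. Cortex was highest without overlap, with a cortex minus brainstem difference of 2.45 ± 0.068, 5.45-fold (adjusted p = 7.98e-24), and a hypothalamus minus cortex difference of -1.19 ± 0.066.

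Gria3 (GluA3) was also highest in cortex, where its median was 34.1 per kb, against 13.1 in brainstem and 9.13 in hypothalamus, a hypothalamus minus cortex difference of -1.85 ± 0.052. Gria4 (GluA4, the fastest form) was highest in brainstem at 36.01, 42.4 and 48.8 per kb, against 24.3, 26.1 and 26.9 in cortex and 20.4, 21.8 and 25.8 in hypothalamus. Brainstem lay above both without overlap, and the small hypothalamus minus cortex difference of -0.21 ± 0.078 (adjusted p = 0.0165) was lost without Hcrt line wild-type hypothalamic library 3 (adjusted p = 0.0573) and without the libraries with Gh or Omp (adjusted p = 0.111). The AMPA sum was therefore built differently in each tissue: GluA1 made up 62.0% ± 1.41 in hypothalamus, GluA1 34.2% ± 1.54 and GluA2 32.0% ± 0.972 in cortex, and GluA4 40.8% ± 0.782 in brainstem, against 14.9% and 14.5% for GluA4 in the other two. The order of GluA1 and GluA2 in cortex turned with the length used: per kb of the longest transcript, GluA1 held 26.9% and GluA2 34.6%. GluA2, which lowers calcium entry, was 16.7% ± 0.693 of the sum in hypothalamus and 10.3% ± 1.12 in brainstem.

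NMDA receptors need GluN1 and pair it with GluN2 or GluN3 subunits. Grin1 (GluN1) had a level per kb of 65.0, 66.8 and 75.5 in cortex, 30.9, 33.2 and 37.6 in hypothalamus and 28.9, 30.1 and 36.2 in brainstem. Cortex stood above both, by 1.14 ± 0.065 over brainstem, and hypothalamus and brainstem overlapped (0.11 ± 0.064, adjusted p = 0.114), a difference that passed at 0.17 without ataxin-3 line wild-type brainstem library 2. Grin2b (GluN2B, the slow form of the developing brain and the forebrain) had 23.6, 25.5 and 27.3 per kb in cortex, 4.59, 5.56 and 7.42 in hypothalamus and 2.03, 2.86 and 3.56 in brainstem. It was 8.996-fold higher in cortex than in brainstem (3.17 ± 0.14, adjusted p = 3.51e-18), with a hypothalamus minus cortex difference of -2.17 ± 0.13 (adjusted p = 9.63e-15).

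Grin2a (GluN2A, the faster adult form) was low per kb, at 0.862, 0.96 and 1.01 in cortex, 0.409, 0.471 and 0.556 in brainstem and 0.193, 0.218 and 0.257 in hypothalamus. Cortex was highest without overlap, and hypothalamus minus cortex was -2.08 ± 0.23 (adjusted p = 5.22e-09). The ratio of Grin2b to Grin2a was 4.51 to 7.03 in brainstem, against 21.9 to 28.9 in hypothalamus and 25.1 to 28.7 in cortex. Its absolute size depends on the merged exon lengths, and the comparison between tissues does not. Grin2c (GluN2C, typical of cerebellar granule cells and astrocytes) was highest in cortex, at a median of 12.4 per kb, and Grin2d (GluN2D, typical of diencephalon and brainstem) in hypothalamus, at 6.00. Their hypothalamus minus cortex differences were -1.39 ± 0.13 and 1.23 ± 0.09. GluN2D made up 36.5% ± 3.63 of the GluN2 sum in hypothalamus, 26.4% ± 4.14 in brainstem and 6.25% ± 0.701 in cortex, and GluN2B 34.0% ± 3.36, 17.1% ± 4.28 and 61.8% ± 1.53.

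Grin3a (GluN3A, which lowers the calcium current) was highest in hypothalamus, with a median of 8.26 per kb, against 5.98 in brainstem and 3.76 in cortex, and hypothalamus exceeded cortex by 1.17 ± 0.062. Grin3b (GluN3B, known from motor neurons) had 1.09, 1.31 and 1.98 per kb in brainstem, 0.0849, 0.153 and 0.167 in hypothalamus and 0.0414, 0.0758 and 0.132 in cortex. Brainstem stood alone, with differences of -3.35 ± 0.20 for hypothalamus minus brainstem (adjusted p = 1.62e-15) and -4.16 ± 0.21 for cortex minus brainstem (adjusted p = 2.21e-17). Its level is uncertain, because 1059 exon bases lie opposite Tmem259, a gene with a median of 2957 counts against 17.5 for Grin3b, and the strand setting of the counting is not given in the sources used here.

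Kainate receptors tune synaptic release and excitability, and their high-affinity subunits GluK4 and GluK5 work only with GluK1 to GluK3. Grik5 (GluK5) led in each tissue, at 44.5, 45.0 and 49.2 per kb in cortex, 22.7, 26.1 and 27.8 in hypothalamus and 11.7, 12.3 and 16.3 in brainstem. Its ranges did not overlap, and cortex exceeded brainstem by 1.81 ± 0.07, with a hypothalamus minus cortex difference of -0.83 ± 0.067. Grik3 (GluK3) and Grik2 (GluK2) did not differ beyond their spread between hypothalamus and cortex (-0.11 ± 0.08, adjusted p = 0.211, and -0.014 ± 0.076, adjusted p = 0.871) and were lower in brainstem, by 1.36 ± 0.082 and 0.90 ± 0.078 in hypothalamus minus brainstem. Grik1 (GluK1) and Grik4 (GluK4) were both highest in hypothalamus, at medians of 2.93 and 5.93 per kb, exceeding cortex by 0.82 ± 0.08 and 0.55 ± 0.064. All 5 kainate genes were higher in hypothalamus than in brainstem.

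The delta glutamate receptors act mainly as adhesion partners of cerebellins across the synapse. Grid1 (GluD1) was highest in hypothalamus at 15.0, 16.5 and 17.6 per kb, against 8.26, 9.23 and 9.80 in cortex and 8.15, 8.55 and 9.31 in brainstem, where the ranges overlapped (0.065 ± 0.056, adjusted p = 0.291).

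Cerebellar markers moved with several subunit genes across the 12 brainstem libraries. In the 6 libraries rich in these markers, Gabrd was 17.2 to 25.0 CPM, against 4.10 to 6.43 in the other 6. Grin2c was 50.1 to 64.3 against 29.6 to 44.8. Gria1 and Gria4 were also higher without overlap, and Gabre, Grin2b, Glra1, Glra2 and Grid1 lower. How many of all genes lay apart in this split was not counted, so it is not known whether subunit genes did so more often. Both kinds of library occurred in all 4 genotypes. Their part in the brainstem levels was not tested beyond leaving these libraries out.

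**Figure D4:**
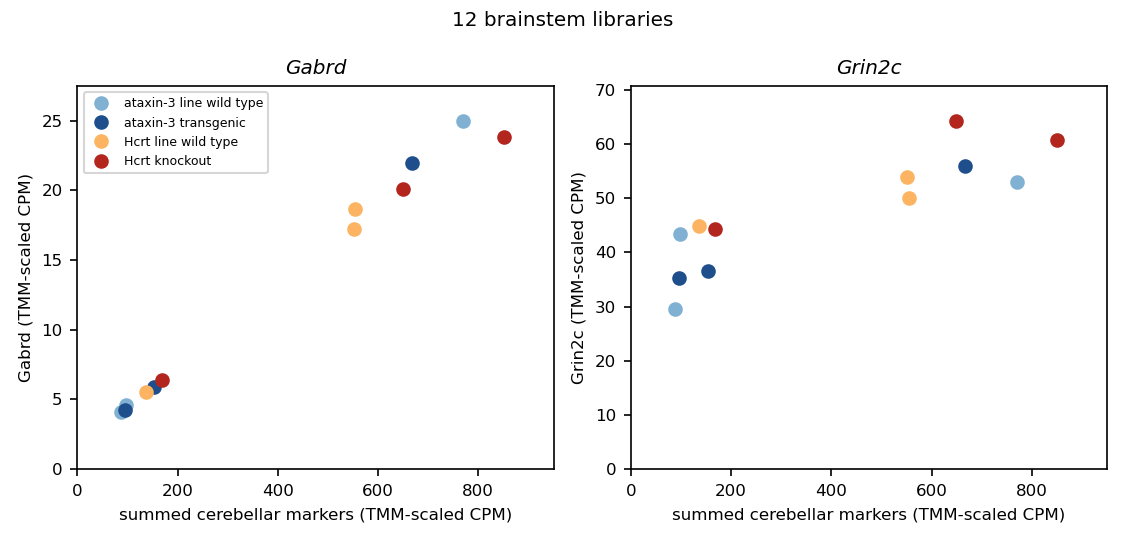
TMM-scaled CPM of Gabrd and Grin2c against the summed CPM of 7 cerebellar markers, for 12 brainstem libraries coloured by genotype, all axes from 0. The 6 libraries above 551 CPM of markers hold the 6 highest values of both genes.

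Many of these genes lie in clusters, and neighbours often differed in tissue pattern. On chromosome 5 (chr5:70751047-72149037), hypothalamus minus cortex was 2.36 for Gabrg1, 0.57 for Gabra2, -1.50 for Gabra4 and 0.91 for Gabrb1 on the log2 scale. Gabra4 alone of these 4 genes was lower in hypothalamus. On chromosome 7, Gabrg3 and Gabra5 were both higher in hypothalamus than in cortex. On chromosome 3, Gria2 and Glrb lie 40763 bases apart, and cortex minus brainstem was 2.45 for Gria2 and -0.88 for Glrb.

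The other genes of these pathways were a list of 42 auxiliary subunits, scaffolds and regulators. Of these, 11 were higher and 24 lower in hypothalamus than in cortex, 26 higher and 9 lower than in brainstem, and 25 were higher and 14 lower in cortex than in brainstem, against the shares of all genes given above. The partners with the smallest p between cortex and brainstem were Nptxr, a pentraxin receptor that clusters AMPA receptors (3.10 ± 0.077), the scaffold Dlg3 (1.60 ± 0.043), the AMPA auxiliary subunit Cacng3 (3.07 ± 0.083) and Shisa7, an auxiliary subunit (3.47 ± 0.11), all higher in cortex. Between hypothalamus and brainstem they were Nptx2 (2.38 ± 0.10), Nptxr (1.65 ± 0.073), Shisa9 (1.13 ± 0.053) and the palmitoyltransferase Zdhhc3 (-0.72 ± 0.031). Between hypothalamus and cortex they were Cacng3 (-2.43 ± 0.08), Cacng4 (1.38 ± 0.062), Gsg1l (-1.66 ± 0.078) and Nptxr (-1.44 ± 0.073). Cacng3 was thus lower and Cacng4, of the same family, higher in hypothalamus than in cortex.

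The genotype comparisons asked whether loss of hypocretin or of its neurons altered these receptors. edgeR's quasi-likelihood test called 0 of the subunit genes in any of the 6 comparisons of a model with its own wild type, with 36 tested in cortex, 38 in brainstem and 39 in hypothalamus. The share of all genes called was low too: 0.00597% for transgenic and 0.0119% for knockout hypothalamus, 0% and 0.0789% for cortex, and 0.00606% and 0.0728% for brainstem. At an unadjusted p under 0.05 the transgenic and knockout comparisons held 0 and 3 subunit genes in hypothalamus (4.16% and 3.89% of all genes), 0 and 1 in cortex (5.09% and 3.3%) and 3 and 2 in brainstem (8.35% and 3.24%). DESeq2 called 0 in each of the 6 as well. Without the 6 brainstem libraries rich in cerebellar markers edgeR also called 0 in the transgenic comparison. This left transgenic libraries 1 and 3 against wild-type libraries 1 and 2, so few that the count shows little. The knockout comparison then held only library 3 of each group, so no count is given for it. None of the 42 partners was called in any of them, and at an unadjusted p under 0.05 the transgenic and knockout comparisons held 1 and 0 in hypothalamus, 1 and 0 in cortex and 6 and 3 in brainstem.

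The 95% intervals show what sizes remained possible. They lay within a 2-fold change either way for 35 of 39 genes in transgenic and 34 in knockout hypothalamus, for 32 and 33 of 36 in cortex, and for 36 and 36 of 38 in brainstem. Within 1.5-fold they lay for 30 and 27, 29 and 30, and 35 and 33 genes. The median log2 difference of the subunit genes was -0.035 and -0.06 in hypothalamus, -0.029 and -0.016 in cortex, and -0.082 and 0.045 in brainstem, where all genes had 0.0066, 0.012, 0.0039, -0.0006, 0.00032 and 0.0041. The difference between the models' effects was not called for any subunit gene in hypothalamus, cortex or brainstem, against 0%, 0.0243% and 0% of all genes, and 1 gene in each had an unadjusted p under 0.05, against 2.26%, 3.13% and 4.75%.

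Some subunit genes had 3 libraries of a model entirely above or below the 3 of its wild type. In hypothalamus these were 2 in the transgenic comparison, 5.13%, and 4 in the knockout one, 10.3%, where all genes gave 9.64% and 7.12%. In cortex they were 2, 5.56%, and 5, 13.9%, against 9.01% and 10.7%. In brainstem they were 5, 13.2%, and 1, 2.63%, against 12.4% and 9.68%. The share of subunit genes was above that of all genes in 3 of the 6 comparisons and below it in the other 3.

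**Figure D5:**
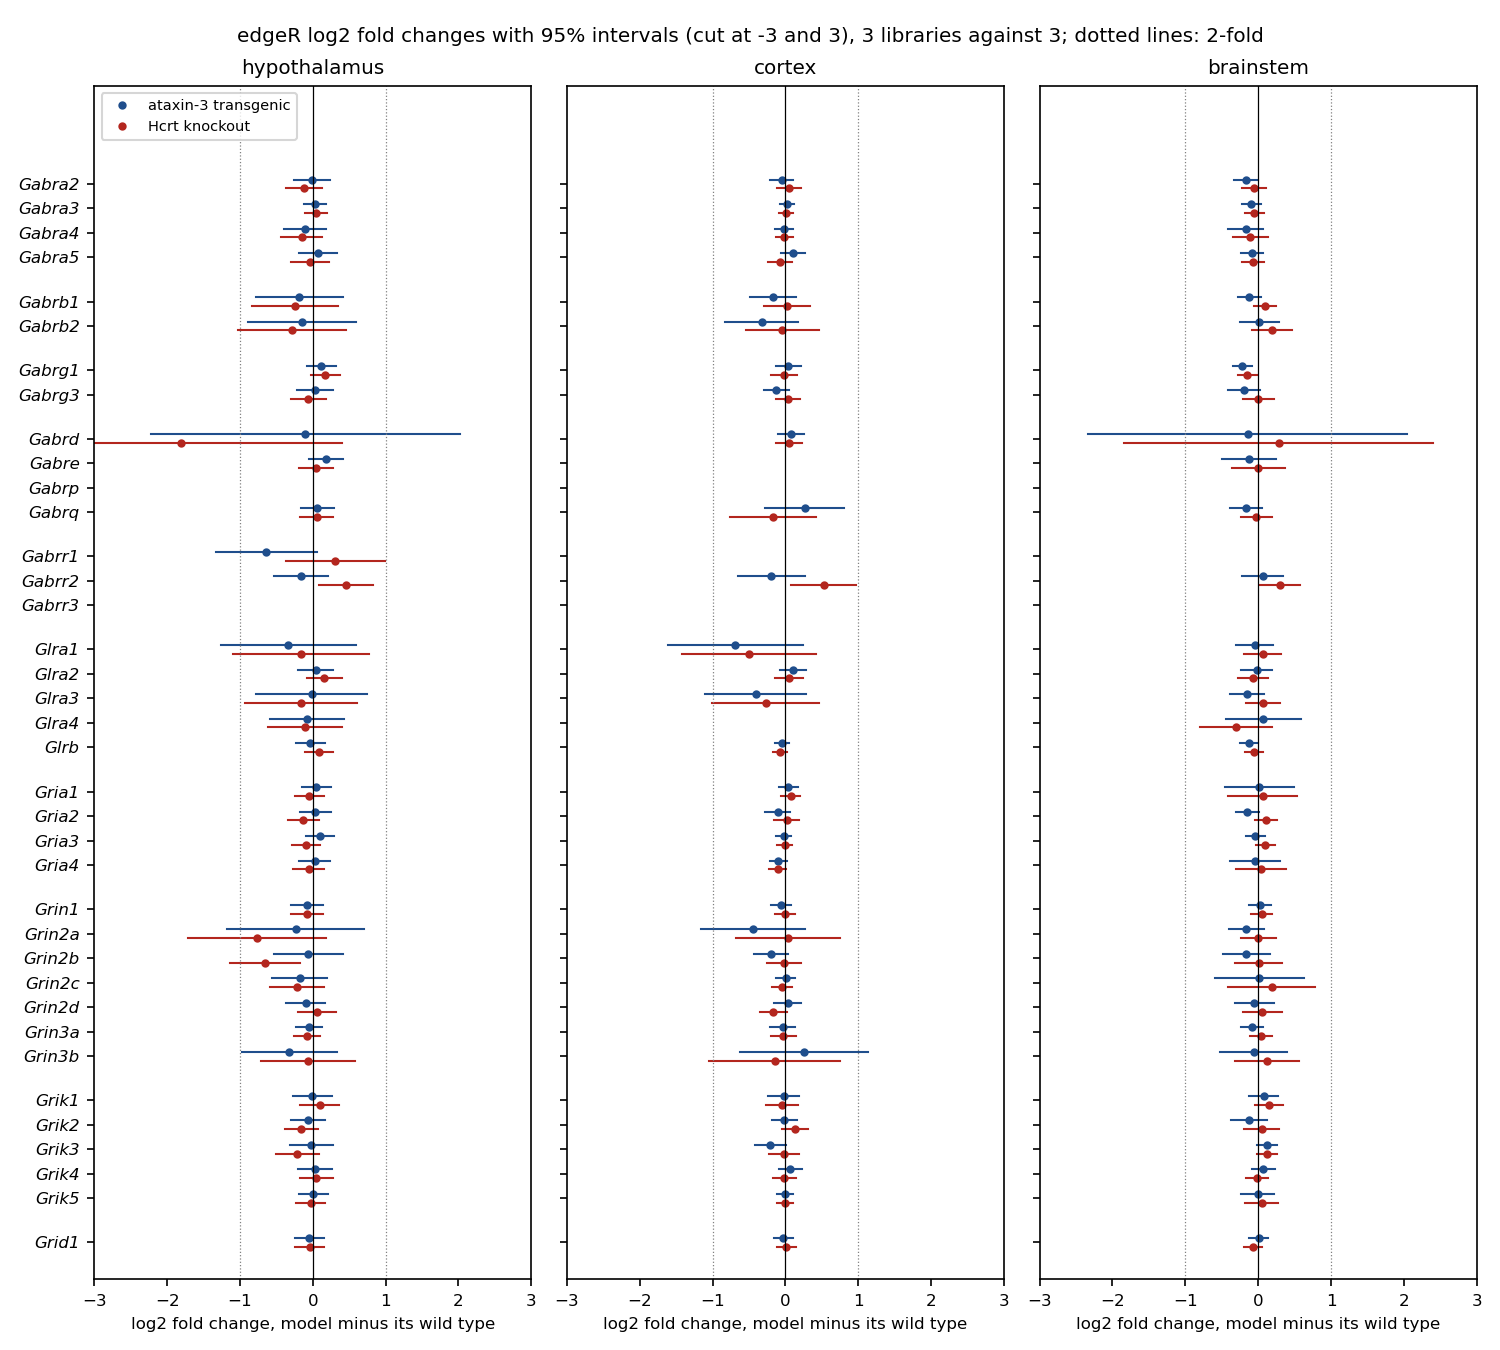
edgeR log2 fold changes of tested subunit genes in transgenic and knockout mice against their own wild type, with 95% intervals cut at -3 and 3, by tissue. Dotted lines mark 2-fold. Most intervals are narrow and include 0, and those of Gabrd in hypothalamus and brainstem are the widest.

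The genes named next were chosen after their values were seen, since none passed the test. Glra1, Gabre and Gabrq, which differed most between tissues, did not differ beyond their spread between genotypes. In hypothalamus Gabre was 47.3, 42.5 and 43.6 CPM in transgenic libraries against 39.4, 42.8 and 36.2 in their wild type (0.18 ± 0.11, 95% interval -0.049 to 0.42), and Gabrq 142, 150.01 and 137 against 133, 152 and 129 (0.061 ± 0.11, interval -0.17 to 0.29). In knockout hypothalamus Gabre was 50.1, 54.8 and 47.6 CPM against 45.4, 58.0 and 44.7 (0.046 ± 0.11, interval -0.19 to 0.28). The groups overlapped in each of these comparisons. In brainstem Glra1 was 128, 103 and 109.7 CPM in transgenic against 124.99, 124 and 103 in wild-type libraries (-0.045 ± 0.12, interval -0.30 to 0.21).

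Gabrr2 (rho2) was the gene with an unadjusted p under 0.05 in the knockout comparison of all 3 tissues. In knockout hypothalamus it was 1.88, 1.92 and 2.23 CPM against 1.55, 1.57 and 1.29 in the Hcrt line wild type, in cortex 1.25, 1.496 and 1.75 against 0.785, 1.17 and 1.098, and in brainstem 3.15, 3.39 and 2.65 against 2.65, 2.34 and 2.49. All knockout libraries lay above all wild types in hypothalamus and cortex, while the lowest knockout and the highest wild type met in brainstem. The log2 difference was 0.45 ± 0.17 (unadjusted p = 0.0201, adjusted 0.806), 0.53 ± 0.21 (unadjusted p = 0.0236, adjusted 1) and 0.29 ± 0.13 (unadjusted p = 0.0371, adjusted 1), so none passed. Across alternative settings the adjusted p ran from 0.416 in hypothalamus, from 0.619 in cortex and from 0.759 in brainstem up to 1.00 in each. Without the libraries rich in cerebellar markers, the brainstem difference was 0.081. That value compares knockout library 3 with Hcrt line wild-type library 3 alone. It therefore cannot show whether the difference depends on those markers.

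In transgenic mice, Gabrr2 was lower than in wild type in hypothalamus and cortex and slightly higher in brainstem, with no call. Transgenic libraries had 1.41, 1.92 and 1.77 CPM in hypothalamus against 1.82, 1.86 and 2.04 in their wild type, and the log2 differences were -0.16, -0.19 and 0.061 in hypothalamus, cortex and brainstem. The test of the difference between the models gave -0.62 ± 0.24 in hypothalamus (unadjusted p = 0.0247, adjusted 0.979) and -0.72 ± 0.30 in cortex (unadjusted p = 0.03, adjusted 0.935). Between the wild types of the lines, ataxin-3 line minus Hcrt line came to 0.38 for hypothalamus, 0.03 for cortex and 0.23 for brainstem, none of them called. The Hcrt line wild type had the lowest mean of the 4 groups in hypothalamus and brainstem. In cortex the transgenic group was lowest, at a mean of 0.911 CPM, against 1.02 in the Hcrt line and 1.05 in the ataxin-3 line wild type.

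Gabrg1 (gamma1) was the subunit gene with the smallest unadjusted p in transgenic brainstem. It was 56.2, 55.7 and 59.8 CPM in transgenic libraries against 71.0, 67.3 and 61.4 in their wild type, and 55.3, 50.4 and 53.0 in knockout libraries against 59.4, 60.9 and 56.0 in theirs. In both models every library lay below every wild-type library of its line. The log2 difference was -0.22 ± 0.062 in transgenic (unadjusted p = 0.00295, adjusted 0.542) and -0.15 ± 0.062 in knockout brainstem (unadjusted p = 0.0262, adjusted 1). Without ataxin-3 line wild-type library 3 the transgenic value passed (-0.26, adjusted p = 0.0341, over all alternatives 0.0341 to 0.96), and 457 of all genes, 2.74%, passed there too. That value rests on wild-type libraries 1 and 2, in which 32.3% and 42.0% of reads were not assigned to a gene, against 27.0% to 28.6% in the other 10 brainstem libraries. Without wild-type library 3, only transgenic library 2 was rich in cerebellar markers in this comparison, at 667 CPM. The part of either in the value was not tested beyond leaving libraries out.

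In knockout hypothalamus the differences of Grin2b and Gabrd rested on few libraries. Grin2b (GluN2B) was 61.3, 122 and 113 CPM in knockout against 184, 136 and 146 in wild-type libraries. All knockouts lay below all wild types, with a log2 difference of -0.66 ± 0.22 (unadjusted p = 0.0115, adjusted 0.806). It was -0.42 without knockout library 1 and -0.46 without the wild-type libraries with Slc17a7 over 50 CPM. Gabrd (delta) was 1.44, 1.95 and 0.85 CPM against 9.92, 1.08 and 3.86, a log2 difference of -1.81 ± 0.98 (adjusted p = 0.806), which became -0.80 without Hcrt line wild-type library 1 and 0.40 without both libraries rich in Slc17a7. Those libraries, 1 and 3, had Slc17a7 at 118 and 87.7 CPM, against at most 12.2 in the other 10 hypothalamic libraries. Without them only Hcrt line wild-type library 2 was left as control. The values of -0.46 for Grin2b and 0.40 for Gabrd rest on it.

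Some subunit genes were low in 1 library of a group. Knockout hypothalamic library 1 had Gabrb2 at 36.8 CPM, with the other 11 hypothalamic libraries at 102 or more, Grin2a at 0.705 against 2.31 or more, and Glra1 at 2.69 against 8.52 or more. Transgenic cortical library 1 had Gabrb2 at 82.8 CPM, against 166 or more, and Grin2a at 5.58 against 14.7 or more. Grin2b was also lowest there, at 435 CPM against 586 or more, and in knockout hypothalamic library 1, at 61.3 against 109.6 or more. In the same libraries, genes with transcripts over 8000 bases were shifted down against genes under 2000 bases, by -0.78 and -0.67 on the log2 scale relative to the tissue, where the next lowest libraries had -0.20 and -0.028. By longest transcript, Grin2a (14634 bases) and Grin2b (24060) lie above 8000, while Gabrb2 (3989) and Glra1 (2390) lie between these limits. The part of this shift in the genotype values was not tested. The knockout Gabrb2 difference was -0.29 ± 0.33 in hypothalamus and the transgenic one -0.33 ± 0.22 in cortex, neither called.

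The wild types of both lines were compared as a background. edgeR called 0 subunit genes in any tissue, and 0% of all genes. In brainstem, 13 of 38 had an unadjusted p under 0.05 against 14.9% of all genes, 12 did not overlap between the groups (31.6%, against 15.6% of all genes), and 29 were higher in the ataxin-3 line. The median log2 difference was 0.12, and -0.0022 for all genes. In hypothalamus 2 and in cortex 2 had an unadjusted p under 0.05 (2.29% and 3.26% of all genes), and 9 and 9 did not overlap, 23.1% and 25%, against 11.1% and 10.6% of all genes.

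The subunit genes of this brainstem difference included Glrb (glycine beta), at 619, 551 and 543 CPM in the ataxin-3 line and 520.0, 492 and 488 in the Hcrt line wild type. Its log2 difference was 0.18 ± 0.057 (adjusted p = 0.191). DESeq2 called 2 subunit genes, Glrb among them (adjusted p = 0.0411), together with 1.76% of all genes. Without ataxin-3 line library 3, edgeR called 5, with Gabra5, Gabrg1, Gabrg3 and Glrb among them, 13.2% of the subunit genes against 7.06% of all genes. Library 3 was the only one of that line rich in cerebellar markers, at 770 CPM. Hcrt line libraries 1 and 2 were rich in them too, at 551 and 555 CPM. Leaving out library 3 thus left such libraries in the Hcrt line alone. Libraries 1 and 2 of the ataxin-3 line had long transcripts shifted by 0.27 and 0.15 and Hcrt line library 2 by -0.22. Libraries 1 and 2 of the ataxin-3 line also had the highest shares of reads not assigned to a gene in brainstem, given above, and the lowest gene counts, 27137630 and 21915540. The part of these signs was not tested. The transgenic brainstem values are read against the same ataxin-3 line wild type, where Glrb in transgenic libraries was 533, 506 and 527 CPM.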

How the data were processed

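RNA of hypothalamus, cortex and brainstem was sequenced as TruSeq stranded mRNA libraries, 36 in all, per the labels' protocols. The authors deposited 1 table of whole-number read counts for each library. Tools named per the submitters' processing notes were cutadapt 1.2.1, TopHat2 2.0.9 and HTSeq 0.5.4p3, with the build GRCm38. Strand setting, overlap mode and annotation release stand as not given in the sources used here, and without strand a gene and its antisense partner cannot be told apart. The special lines of unassigned reads held 24.7% to 42% of a library's total and were left out.

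Symbols, positions and exon lengths came from GENCODE M21 (37607 of 38924 identifiers matched). Genotypes were tested with edgeR 4.0.16 (R 4.3.3; TMM, its default expression filter, robust quasi-likelihood fit) on the 12 libraries of a tissue, and wild-type tissues on all 36. Genes tested numbered 16738 in hypothalamus, 16479 in cortex, 16493 in brainstem and 17744 over all. p-values were adjusted by Benjamini-Hochberg over all genes tested. Levels were TMM-scaled CPM, per kb of merged exons where genes are compared. SE is the log2 difference over the root of F. The fits were tested on simulated data. Alternatives were DESeq2 1.42.0, limma-voom 3.58.1, other scaling and filters, a replicate block and leaving out libraries.

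All 41 genes enter the counts, medians and family sums, and results of single genes are not reported here for a few of them. Full statistics go to the 3 largest differences in each direction per pair of tissues, the leading gene of each family and, had any been called, genes called between genotypes. The members and lists were chosen with earlier results of these data known.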

Additional observations from a re-analysis of the deposited data

How the results depend on the processing

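The count of subunit genes called between genotypes stayed at 0 in all alternatives except these: in transgenic brainstem it ran from 0 to 1 when single libraries were left out, and between the brainstem wild types it was 2 with DESeq2 and ran from 0 to 5 when single libraries were left out, the upper values coming without ataxin-3 line wild-type library 3. Between tissues the counts were 33 to 37 for hypothalamus and cortex, 34 to 38 for hypothalamus and brainstem and 33 to 36 for cortex and brainstem. Of 2454 alternative values of single genes between tissues, 2420 kept direction and side of the threshold, 8 lost and 20 gained a call, and 6 uncalled ones turned sign. Leaving out the brainstem libraries rich in cerebellar markers was chosen after seeing the data. Leaving out marker-rich libraries left 1 library in some groups, so a count of 0 there decides nothing. In brainstem these were both groups of the knockout comparison. In hypothalamus it was the Hcrt line wild type without the libraries rich in Slc17a7. Without those with Gh or Omp it was the ataxin-3 line wild type. Replicate numbers were not taken to pair the samples, because not every same-numbered pair correlated above 0.1: the correlations were -0.222 to 0.282 within a tissue and -0.139 to 0.097 between tissues. Within a tissue, a library correlated best with its own number in 12 of 18 cases (8 of 9 in the Hcrt line and 4 of 9 in the ataxin-3 line), where 1 in 3 would be 6, and between tissues in 15 of 36. This is a hint of shared numbers in the Hcrt line, from the data and not the design. With the replicate block the counts stayed at 0 between genotypes and were 34, 36 and 33 between tissues. With longest transcripts in place of merged exons, 66 of 102 family shares moved by more than 1 SD, so shares and levels per kb carry the choice of length. Genes under about 10 counts a library (Gabrp, Gabrr1, Gabrr3 and, in cortex, Gabre, Glra1 and Glra4) are limited by depth.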
